A study of Mus musculus with 10 samples.

Results

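The EphB receptors and the ephrin-B ligands were examined in the mossy cell (MC)-enriched RNA of dorsal and ventral hippocampus. The group comprised every gene identifier whose symbol in the mouse annotation is Ephb1, Ephb2, Ephb3, Ephb4 or Ephb6 (receptors) or Efnb1, Efnb2 or Efnb3 (ligands), which gave 8 of the 54838 identifiers in the count tables. RNA was obtained by translating ribosome affinity purification (TRAP), in which an EGFP-tagged ribosomal protein, L10a, is precipitated together with the RNA bound to its ribosomes. All libraries, dorsal and ventral alike, came from C57BL/6 male mice of about 10 weeks with the genotype Drd2-Cre;Eef1a1 LSL EGFP-L10a/+. There were 5 Dorsal libraries, from the dorsal end of the hippocampus, and 5 Ventral libraries, from the remaining ventral part after the ventral subiculum was taken off. Each library pooled the tissue of 5 mice, so that the replicate is a pool and not an animal. The tag is not restricted to MCs in this line: inhibitory neurons and cells of the ventral subiculum carry it too, which limits the model. The paper calls the inhibitory neurons sparse in its images, but its stated limits include a substantial subset of them.

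Eph receptors are the largest family of receptor tyrosine kinases, and their ligands, the ephrins, are themselves held in the membrane, so that binding takes place where cells touch. B-class ephrins span the membrane and signal in both directions: the receptor signals into its own cell (forward) and the ephrin-B into the cell that carries it (reverse). In the hippocampus the family is known for axon guidance, for the growth of dendritic spines and for the clustering of glutamate receptors at excitatory synapses.

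RefSeq (GRCm38.p6) gave a promoter window, from 250 bases before to 50 bases after the start, for 7 of the 8 genes. The gene without an entry was Efnb3, which was called dorsal enriched. The 250 bases before the start are shown for 2 genes called dorsal enriched and 2 called ventral enriched, to let the sequences be compared. They lie at chr9:102354694-102354943 on the minus strand (Ephb1), chrX:99135811-99136060 on the plus strand (Efnb1), chr6:41605261-41605510 on the plus strand (Ephb6) and chr8:8661243-8661492 on the minus strand (Efnb2). Capitals mark matches on either strand to the GC box (GGGCGG), the TATA box (TATAAA) or the CCAAT box (CCAAT).
Ephb1: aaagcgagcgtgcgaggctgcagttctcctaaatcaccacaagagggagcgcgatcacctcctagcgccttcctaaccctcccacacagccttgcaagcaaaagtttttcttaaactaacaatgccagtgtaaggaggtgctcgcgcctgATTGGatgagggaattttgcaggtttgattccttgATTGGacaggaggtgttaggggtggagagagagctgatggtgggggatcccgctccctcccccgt
Efnb1: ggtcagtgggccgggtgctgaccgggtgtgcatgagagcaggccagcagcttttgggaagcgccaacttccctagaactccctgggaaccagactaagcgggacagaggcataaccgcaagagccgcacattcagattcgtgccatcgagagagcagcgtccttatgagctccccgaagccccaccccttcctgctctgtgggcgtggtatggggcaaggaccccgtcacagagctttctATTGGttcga
Ephb6: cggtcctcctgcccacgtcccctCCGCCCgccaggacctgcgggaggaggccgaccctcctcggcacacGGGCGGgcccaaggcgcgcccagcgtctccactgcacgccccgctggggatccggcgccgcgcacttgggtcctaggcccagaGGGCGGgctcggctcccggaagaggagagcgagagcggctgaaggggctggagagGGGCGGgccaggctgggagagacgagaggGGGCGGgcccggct
Efnb2: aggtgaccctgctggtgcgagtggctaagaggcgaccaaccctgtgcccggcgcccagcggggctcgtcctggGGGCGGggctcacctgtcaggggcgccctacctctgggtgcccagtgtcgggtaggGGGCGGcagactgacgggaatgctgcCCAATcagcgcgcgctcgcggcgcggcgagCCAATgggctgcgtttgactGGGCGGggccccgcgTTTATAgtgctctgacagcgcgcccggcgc
Ephb6 held 5 GC boxes and Efnb2 held 3, whereas Ephb1 and Efnb1 held 0. Of the genes without a call, Ephb2 held 0, Ephb3 held 2 and the untested Ephb4 held 4. The GC box was present in 35.7% of 32851 RefSeq promoter windows of the same length. The 300-base windows of Ephb6 and Efnb2 contained 34 and 35 CG dinucleotides, more than 92.3% and 93.0% of all windows. Those of Ephb1, Efnb1 and the untested Ephb4 each contained 14, and those of the uncalled Ephb2 and Ephb3 contained 24 and 23, against a median of 7. CCAAT, found in 37.4% of windows, occurred 2 times each in Ephb1 and Efnb2 and 1 time each in Efnb1, the uncalled Ephb2 and the untested Ephb4. TATAAA, found in 13.6%, occurred 1 time in Efnb2. AGGTCA and CACGTG, present in 16.3% and 7.15% of windows, had no match in any of the 7. These letter matches are a description of the windows and were not tested against the expression data.

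Of the 8 genes, 7 passed the expression filter of more than 1 CPM (a read count scaled by library size, here with TMM factors) in at least 2 libraries. Among these 7, 3 were called dorsal enriched (Ephb1, Efnb1 and Efnb3) and 2 ventral enriched (Ephb6 and Efnb2). A gene was called when the Benjamini-Hochberg adjusted p of edgeR's quasi-likelihood test, taken over all 16806 tested genes, was below 0.05 and the log2 ratio of group mean CPM plus 1 was above 0.58 in size. By that rule 15.7% of all tested genes were dorsal enriched and 9.85% ventral enriched, 25.5% in total, and 21.7% of the 13549 tested protein-coding genes were called. By class, the receptors gave 1 dorsal call, 1 ventral call, 2 genes without a call and 1 that was not tested, and the ligands gave 2 dorsal calls and 1 ventral call. Neither class moved as a whole, and 1 receptor and at least 1 ligand were called in each direction. In bulk precipitates of this kind, fewer labelled cells and less RNA per cell cannot be told apart.

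**Figure D1:**
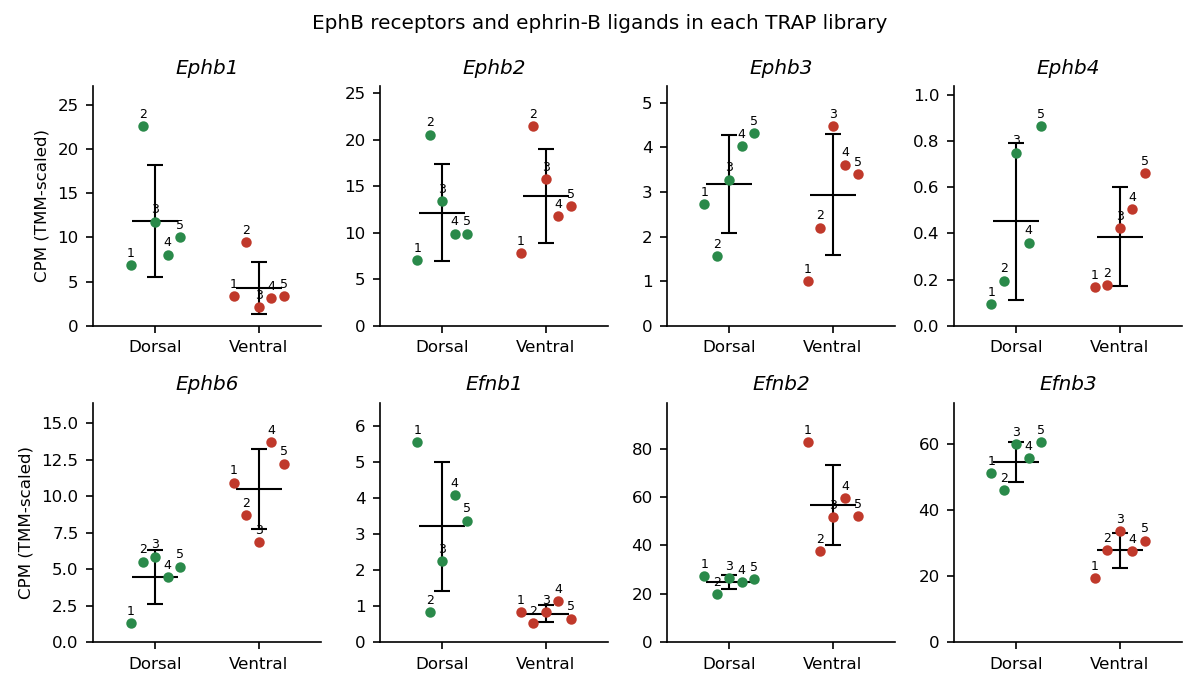
TMM-scaled CPM (vertical axes, linear, from 0) of the 5 EphB receptors and 3 ephrin-B ligands in each Dorsal (green) and Ventral (red) library. Points are libraries marked by replicate number, and the bars give the mean ± SD of 5 libraries. The groups are separated for Ephb6, Efnb2 and Efnb3 and overlap for the other 5 genes.

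Efnb3 and Efnb2, the most abundant genes of the family in these libraries per length of transcript, differed in opposite directions. Efnb3 encodes an ephrin-B that binds EphB receptors and also EphA4, and is known as a midline barrier to growing axons. Efnb3 (ENSMUSG00000003934, chromosome 11, 69554092 to 69560205, minus strand, GRCm38) reached 51.2, 46.0, 59.9, 55.8 and 60.5 CPM in Dorsal libraries 1 to 5 and 19.5, 27.8, 33.7, 27.5 and 30.8 CPM in Ventral libraries 1 to 5. All Dorsal libraries lay above all Ventral ones. The means were 54.7 ± 6.13 and 27.9 ± 5.29 CPM (SD, n = 5 each), a log2 fold change of 0.98 (SE 0.15, edgeR adjusted p = 0.000456).

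Efnb2, whose protein is a ligand of EphB receptors with well studied reverse signalling through its PDZ-binding tail, showed the opposite pattern. Efnb2 (ENSMUSG00000001300, chromosome 8, 8617434 to 8661242, minus strand) reached 27.3, 19.9, 26.4, 24.9 and 26.2 CPM in Dorsal libraries 1 to 5 and 82.5, 37.7, 51.7, 59.6 and 52.2 CPM in the Ventral ones. Here every Ventral library exceeded every Dorsal library, and the ventral values were the more widely spread, with Ventral library 1 the highest. The log2 fold change of dorsal over ventral was -1.21 (SE 0.19, edgeR adjusted p = 0.000524), from means of 24.95 ± 2.96 and 56.7 ± 16.4 CPM.

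Efnb1 is the X-linked ephrin-B gene, known for its part in boundary formation between groups of cells. Efnb1 (ENSMUSG00000031217, chromosome X, 99136130 to 99148991, plus strand) was low, with 5.55, 0.845, 2.25, 4.08 and 3.38 CPM in Dorsal libraries 1 to 5 and 0.832, 0.528, 0.844, 1.14 and 0.661 CPM in Ventral libraries 1 to 5. These values rest on 13 to 68 counts per Dorsal library and 6 to 18 per Ventral library. Dorsal library 2 lay below Ventral library 4, so the groups overlapped, while the other 4 Dorsal libraries exceeded all Ventral ones. The log2 fold change was 1.93 (SE 0.49, edgeR adjusted p = 0.00794), the largest of the 7 tested genes, with a 95% interval from 0.90 to 2.96.

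The receptors showed a similar split. EphB1 is a kinase-active receptor known for guidance of axons at the optic chiasm and for roles in neural progenitors of the dentate gyrus. Ephb1 (ENSMUSG00000032537, chromosome 9, 101922128 to 102354693, minus strand) reached 6.87, 22.6, 11.8, 8.05 and 10.1 CPM in Dorsal libraries 1 to 5 and 3.38, 9.51, 2.11, 3.16 and 3.35 CPM in Ventral libraries 1 to 5. Library 2 was the highest of both groups, and Ventral library 2 lay above Dorsal libraries 1 and 4, so the groups overlapped. The means were 11.9 ± 6.29 and 4.30 ± 2.96 CPM, and the log2 fold change was 1.58 (SE 0.41, edgeR adjusted p = 0.00984). Without both libraries numbered 2, an alternative chosen after the data were seen, it was 1.59 (SE 0.26, edgeR adjusted p = 0.00130). A stretch of 2.17% of its exonic length is shared with the antisense transcript Gm26846, which had 0 to 7 counts per library, and whether counting used strand is not given in the sources used here.

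Ephb6 encodes a receptor that lacks kinase activity and acts through the receptors it pairs with. Ephb6 (ENSMUSG00000029869, chromosome 6, 41605482 to 41620509, plus strand) reached 1.32, 5.52, 5.86, 4.44 and 5.19 CPM in Dorsal libraries 1 to 5 and 10.9, 8.72, 6.84, 13.7 and 12.2 CPM in the Ventral ones. All Ventral libraries were above all Dorsal ones, and Dorsal library 1 was the lowest of the 10. The log2 fold change was -1.22 (SE 0.29, edgeR adjusted p = 0.00615), with means of 4.47 ± 1.84 and 10.5 ± 2.73 CPM. Ephb6, Efnb2 and Efnb3 were thus the 3 of 7 tested genes whose groups did not overlap, against 18.2% of all tested genes.

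Ephb2, whose receptor is known to cluster NMDA receptors at excitatory synapses, was not called. Ephb2 (ENSMUSG00000028664, chromosome 4, 136647539 to 136835988, minus strand) reached 7.06, 20.5, 13.4, 9.91 and 9.90 CPM in Dorsal libraries 1 to 5 and 7.82, 21.5, 15.8, 11.8 and 12.9 CPM in Ventral libraries 1 to 5. Library 1 was the lowest and library 2 the highest in both groups, and the groups overlapped almost entirely. The log2 fold change was -0.11 (SE 0.30, edgeR adjusted p = 0.803), and its 95% interval from -0.75 to 0.53 still admits a difference of the size that the threshold asks for in the ventral direction.

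Ephb3, a kinase-active receptor related to EphB2, had no call either. Ephb3 (ENSMUSG00000005958, chromosome 16, 21204755 to 21223305, plus strand) ranged from 1.56 to 4.32 CPM in Dorsal and from 0.999 to 4.47 CPM in Ventral libraries, with the Dorsal range inside the Ventral one. Its log2 fold change was 0.14 (SE 0.39, edgeR adjusted p = 0.810) with a 95% interval from -0.70 to 0.99, wide enough to hold a change past the threshold in either direction. Ephb4, best known as the receptor of venous endothelium, was close to the limit of detection. Ephb4 (ENSMUSG00000029710, chromosome 5, 137350109 to 137378669, plus strand) had 1, 3, 11, 6 and 11 counts in Dorsal libraries 1 to 5 and 3, 2, 5, 8 and 14 counts in Ventral libraries 1 to 5, and was not tested because it stayed below 1 CPM in every library. At this depth, where 3 counts amount to 0.146 to 0.269 CPM, a difference in Ephb4 could not be measured closely. Without the expression filter its log2 fold change was 0.15 with an SE of 0.71.

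**Figure D2:**
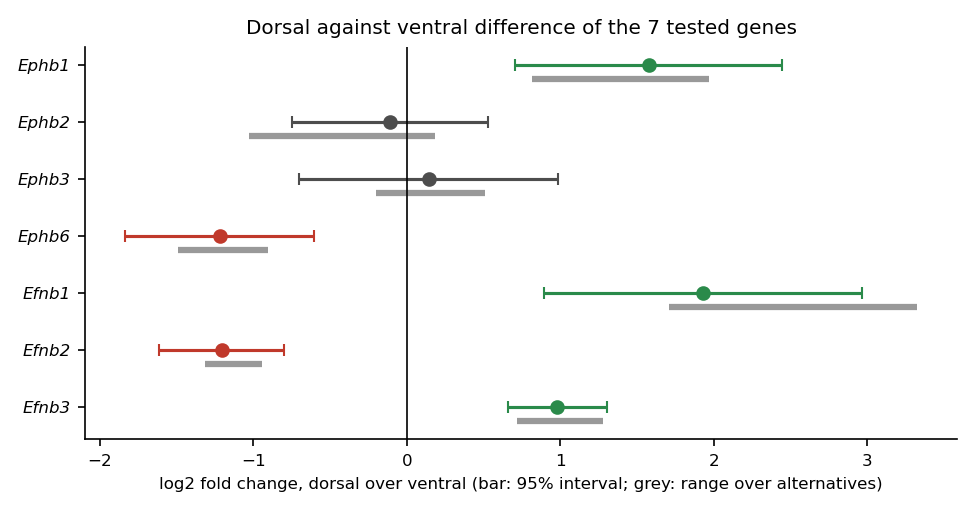
Log2 fold change of dorsal over ventral (horizontal axis) for the 7 tested genes, with 95% intervals from edgeR's quasi-likelihood fit (n = 5 libraries a group). Green marks dorsal calls, red ventral calls and dark grey no call, and the light grey bars span the values under the other settings tried. Ephb1, Efnb1 and Efnb3 lie right of 0, Ephb6 and Efnb2 left of it, and the intervals of Ephb2 and Ephb3 cross it.

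Levels were compared between the genes as CPM per kilobase of exon. On that scale the order in Dorsal libraries was Efnb3 (17.2 ± 1.92), Efnb2 (3.64 ± 0.432), Ephb1 (1.70 ± 0.898), Ephb6 (1.18 ± 0.487), Ephb2 (0.965 ± 0.412), Efnb1 (0.933 ± 0.518), Ephb3 (0.479 ± 0.166) and Ephb4 (0.0976 ± 0.0732). From Ephb1 down to Ephb3, neighbours in this order differed by less than the larger of their SDs. In Ventral libraries it was Efnb3 (8.76 ± 1.66), Efnb2 (8.28 ± 2.40), Ephb6 (2.78 ± 0.723), Ephb2 (1.11 ± 0.404), Ephb1 (0.615 ± 0.422), Ephb3 (0.442 ± 0.204), Efnb1 (0.232 ± 0.0665) and Ephb4 (0.0833 ± 0.0462), and such neighbours were Efnb3 and Efnb2, and Ephb1 and Ephb3. Among 13549 tested protein-coding genes ranked by mean level per kilobase over all libraries, Efnb3 stood at percentile 76.3 and Efnb2 at 59.4, while the 5 tested others lay between percentile 11.9 (Ephb3) and 34.7 (Ephb6).

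The make-up of each class differed between the groups, while its total overlapped. Summed per kilobase, the ephrin-B ligands reached 21.8 ± 2.47 CPM per kilobase in Dorsal and 17.3 ± 1.66 in Ventral libraries, and the EphB receptors 4.42 ± 1.57 and 5.02 ± 0.799. The ligand sums overlapped only through Dorsal library 2 (17.6). The other Dorsal libraries (21.7 to 23.8) lay above the highest Ventral library (18.4). Efnb3 made up 74.2 to 82.1% of the ligand level in Dorsal libraries and 33.3 to 60.7% in Ventral ones, and Efnb2 made up 16.1 to 18.4% and 38.2 to 65.4%. The ratio of Efnb3 to Efnb2 was 4.74 ± 0.396 in Dorsal libraries (4.04 to 4.98) and 1.15 ± 0.420 in Ventral ones (0.510 to 1.59).

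Among the receptors, Ephb1 accounted for 30.3 to 48.9% of the summed level per kilobase in Dorsal libraries and for 7.30 to 23.6% in Ventral ones. Ephb6 accounted for 15.0 to 31.3% and 40.2 to 69.2%. The ratio of the kinase-active Ephb1 to the kinase-inactive Ephb6 was between 0.976 and 2.81 in Dorsal libraries and between 0.125 and 0.588 in Ventral ones, without overlap. Ephb1 over Ephb2, both kinase-active, was 1.46 to 1.98 in Dorsal and 0.241 to 0.797 in Ventral libraries. That ratio varied less between Dorsal libraries than either gene did, and library 2 was the highest of its group for both genes. These shares and ratios restate the calls of their genes and carry no test of their own.

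**Figure D3:**
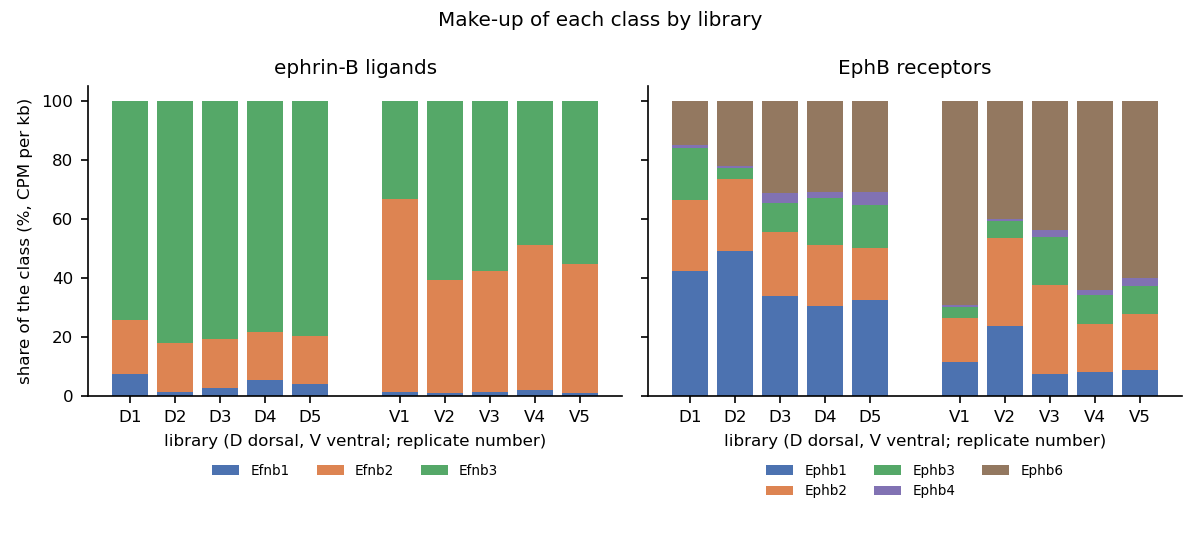
Share of each ephrin-B ligand (left) and each EphB receptor (right) in the summed level of its class, as percent of CPM per kilobase, in each Dorsal (D) and Ventral (V) library. Efnb3 fills 74.2 to 82.1% of the ligand bars in Dorsal libraries and 33.3 to 60.7% in Ventral ones, and Ephb6 takes the widest part of the receptor bars in Ventral libraries.

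The genes through which the family signals were then counted, from lists of 43 partner genes. Of these, 41 were tested, 5 were called dorsal enriched and 3 ventral enriched, and their median log2 fold change was 0.01, beside -0.0044 over all tested genes and the 15.7% and 9.85% of genes called in each direction. Of the A-class genes that cross over to B-class partners, Epha4, a receptor that binds ephrin-B2 and ephrin-B3 as well as A-class ephrins, rose dorsally. It ranged from 424.7 to 481.8 CPM in Dorsal and from 230.6 to 275.5 CPM in Ventral libraries, which did not overlap, with a log2 fold change of 0.87 (SE 0.085, edgeR adjusted p = 2.10e-05). Efna5, an A-class ephrin that also binds EphB2, was at 7.08 ± 1.90 and 8.59 ± 5.85 CPM and was not called (edgeR adjusted p = 0.701).

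Of 24 forward signalling genes, 2 were dorsal and 2 ventral enriched. Kalrn, which encodes kalirin, ranged from 4006 to 6704 CPM in Dorsal and from 9663 to 12230 CPM in Ventral libraries, a log2 fold change of -1.14 (SE 0.13, edgeR adjusted p = 5.66e-05). At 0.424 to 1.24% of all counts on genes it ranked number 3 of the 16806 tested genes by mean CPM, which is not scaled to length. Per kilobase of exon it ranked number 52 of the 13549 tested protein-coding genes. Tiam1, a Rac exchange factor, ranged from 164.9 to 218.8 CPM in Dorsal and from 91.1 to 135.0 CPM in Ventral libraries, a log2 fold change of 0.88 (SE 0.12, edgeR adjusted p = 0.000228). Nck1, an adaptor that links phosphorylated receptors to actin, was higher dorsally by 1.02 on the log2 scale (SE 0.21, edgeR adjusted p = 0.00287), although its groups overlapped, and the call was lost with offsets for GC content and length together with the replicate number as a block (0.74, edgeR adjusted p = 0.0564). Limk1, the kinase that phosphorylates cofilin, was ventral enriched without overlap (-0.72, SE 0.15, edgeR adjusted p = 0.00342), but its call was lost with offsets for GC content and length (-0.36).

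Of 9 reverse signalling genes, Rgs3, whose product binds ephrin-B and dampens G protein signals, was dorsal enriched (log2 fold change 1.27, SE 0.38, edgeR adjusted p = 0.0214). Its groups overlapped, and the call was lost without Dorsal library 3 (1.06) and without Dorsal library 5 (1.19). Grip1, a PDZ scaffold of ephrin-B and AMPA receptors, was ventral enriched (-0.75, SE 0.25, edgeR adjusted p = 0.0303), and 6 of the 10 fits that left out 1 library lost the call. The groups of Grip1 overlapped. Its call was lost as well with GC and length offsets (-0.58), with these and the replicate block (-0.57) and with the replicate block alone (-0.73). It was also lost with the dispersions of edgeR 3 (adjusted p = 0.05003) and without both libraries numbered 2 (-0.62). The 6 fits with 1 library left out were without Dorsal library 1 (-0.69), 2 (-0.59) or 4 (-0.77) or Ventral library 1 (-0.63), 4 (-0.74) or 5 (-0.71). Of 6 tested genes of shedding and gamma-secretase cleavage, Adam10, a protease that cuts ephrins, was dorsal enriched at 107 ± 19.2 against 66.3 ± 20.3 CPM (log2 fold change 0.68, SE 0.18, edgeR adjusted p = 0.0123). Its groups overlapped, and Ventral library 1 (101.5 CPM) lay above Dorsal libraries 1, 3 and 4. This call was lost without Dorsal library 2 (0.56) and without both libraries numbered 2 (0.51, edgeR adjusted p = 0.0530). Mmp2 and Mmp9 were below the filter.

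**Figure D4:**
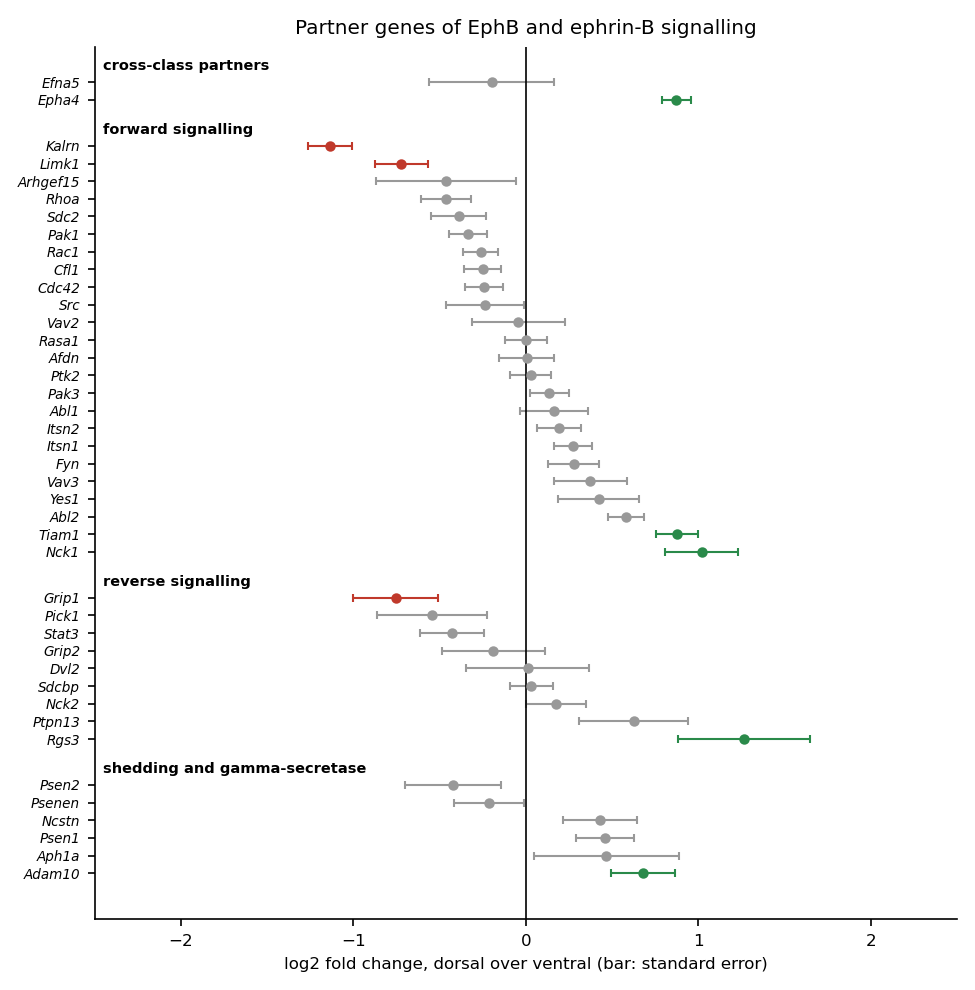
Log2 fold change of dorsal over ventral (horizontal axis, bars: standard error, n = 5 libraries a group) for the 41 tested partner genes, in 4 lists by role. Green marks the 5 dorsal calls and red the 3 ventral calls. Points lie on both sides of 0 in all 4 lists, and Kalrn and Tiam1 are on opposite sides.

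Several measures of the libraries moved with the groups. Read pairs on no annotated gene made up 21.8 to 33.9% in Dorsal and 11.6 to 19.3% in Ventral libraries (two-sided p = 0.00794 in an exact permutation test, and no smaller p is possible with 5 against 5). Messenger RNA of mitochondrial genes ranged from 2773 to 3524 and from 447.0 to 1257 CPM. Summed oligodendrocyte markers were at 2684 to 3165 and 995.2 to 1954 CPM (5 of 9 dorsal enriched, 0 ventral), and astrocyte markers at 1872 to 2118 and 677.2 to 1249 CPM (4 of 7 dorsal, 1 ventral). Over all tested genes, 15.7% were called dorsal and 9.85% ventral enriched. Microglial and endothelial marker sums overlapped between groups (21.9 to 23.8 against 12.9 to 33.7, and 12.8 to 48.4 against 12.9 to 60.0 CPM). Interneuron sums also overlapped (3214 to 4309 against 3870 to 5117 CPM), and Gad2, which was not called, was abundant in both groups (means 2853 and 3174 CPM). But all 7 interneuron markers had a log2 fold change below 0 (median -0.40), and Sst (-0.66, edgeR adjusted p = 0.000987) and Pvalb (-0.63, edgeR adjusted p = 0.00481) were ventral enriched. Oligodendrocyte precursor sums overlapped as well (34.5 to 78.1 against 31.3 to 53.5 CPM). So did granule cell (372.4 to 497.2 against 362.3 to 504.9 CPM) and pyramidal cell sums (496.0 to 572.7 against 452.9 to 559.7 CPM). No listed marker was at 0 in all libraries. Overlapping sums still held called markers. Of 5 granule cell markers, Prox1 was dorsal (0.72) and Calb1 ventral enriched (-0.88). Of 6 pyramidal cell markers, Man1a (0.83) and Bok (0.87) were dorsal and Mpped1 (-0.74) ventral enriched. Vcan, of 5 precursor markers, and C1qa, of 6 microglial ones, were dorsal enriched, and no tested endothelial marker was called. Ventral subiculum markers summed to 6.49 to 9.68 and 2.79 to 7.84 CPM. Of these 3 markers, Gpc3 was dorsal enriched (1.36, edgeR adjusted p = 0.0226). Of 8 mossy cell markers, all were tested, 3 were dorsal and 2 ventral enriched, and Calb2, a marker of ventral MCs in the mouse, was at 65.2 ± 9.32 and 616.3 ± 94.6 CPM. The part of these measures in the results was not tested, apart from 1 fit.

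With the share of read pairs on no gene as a covariate, which does not overlap between the groups and so cannot be told apart from them, 4 of the 5 calls were lost and Efnb1 alone was still called (log2 fold change 3.33, edgeR adjusted p = 0.0180). Ephb1 was then at 0.82 (adjusted p = 0.568), Ephb6 at -1.49 (0.174), Efnb2 at -0.94 (0.159) and Efnb3 at 0.72 (0.140), each with its direction kept. In that fit 833 genes were dorsal and 340 ventral enriched of the 16806 tested. Among the called partner genes, Epha4, Tiam1 and Kalrn kept their calls. Those of Rgs3 (0.25, adjusted p = 0.868), Grip1 (-0.66, 0.483), Adam10 (0.77, 0.239), Limk1 (-0.69, 0.219) and Nck1 (1.14, 0.112) were lost, each with its direction kept.

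For the 5 called genes, the 2 protein-coding genes with the nearest profile were sought by the root mean square difference of log2(CPM + 1), centred on the mean of the 10 libraries. For Efnb3 these were Gucd1 (0.132) and Matn2 (0.140), for Efnb2 Cpne2 (0.150) and Gcdh (0.167), and for Ephb6 Npas1 (0.172) and Atp5d (0.201). For Ephb1 they were Fyb2 (0.279) and Gm10118 (0.284), and for Efnb1 Snai2 (0.163) and Nr1h4 (0.202), of which Snai2 had no count in any Ventral library. Cpne2 was at 18.1 and 40.7 CPM and Matn2 was at 39.1 and 21.5 CPM in Dorsal and Ventral libraries. Fyb2 (3.03 and 0.62 CPM), Snai2 (1.18 and 0 CPM) and Nr1h4 (1.06 and 0.112 CPM) were low in both groups. None of these 10 genes belongs to the family, and the likeness describes these libraries alone.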

How the data were processed

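Read pairs counted per gene in 10 TRAP libraries were analysed, 1 file per library. The deposited values are raw counts: RNA was amplified (Ovation), sequenced as paired ends, aligned by the authors to GRCm38 with STAR 2.5.2b and counted with HTSeq-count 0.7.2, and the annotation release and strand setting are not given in the sources used here. The amplified reads carry no molecular identifiers, so floors cover counting error only. Gene models came from GENCODE vM21 (54809 of 54838 identifiers matched).

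Counts on genes per library were 11138676 to 20594364 (group means compared by a two-sided exact permutation test, p = 0.421), and no pair of libraries was a duplicate (chi-square per degree of freedom 4.36 to 45.1 within groups). Groups came from the sample labels. Hippocampi were cut into dorsal and ventral parts before pooling, and the mice described are too few for separate Dorsal and Ventral pools, so the groups share animals and are not independent. Which pools share mice is not given in the sources used here, and p-values measure the spread between these pools. Genes above 1 CPM in at least 2 libraries were tested in R 4.3.3 with edgeR 4.0.16 (TMM, quasi-likelihood test, Benjamini-Hochberg adjustment). Standard errors were taken from the fold change and the F statistic. The test was checked on simulated counts. Alternatives were other scalings, filters and tests, DESeq2 1.42.0, GC and length offsets (mgcv 1.9.3), the replicate number as a block, the share on no gene as a covariate, a stricter threshold, and each library left out. Genes named were all 8 members, every called partner gene, and the 2 nearest profiles of each called member. Members, partner lists and marker lists were chosen with earlier results of these data known. In situ and imaging data were not analysed here.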

Additional observations from a re-analysis of the deposited data

Results flagged for a closer look

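In 4 of 34 groups of 5 libraries, formed by the family, the called partner genes and the share of read pairs on no gene, 1 library stood apart by the gap-to-range ratio (critical value 0.71 for 5 libraries), and chance alone flags about 1 in 20 groups. Ventral library 2 was far above the other Ventral libraries for Ephb1 (9.51 CPM, ratio 0.828). Dorsal library 5 was the highest for Limk1 (19.4 CPM, ratio 0.799). For Adam10, Dorsal library 2 (140 CPM, ratio 0.754) and Ventral library 1 (102 CPM, ratio 0.740) both lay far above the rest of their group.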

How the results depend on the processing

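All 5 family calls kept their direction and their call under 15 of 16 alternatives and under all 10 fits that left out 1 library, the exception being the covariate for the share of read pairs on no gene. With it, dorsal and ventral calls fell to 1 and 0 in the family (Ephb1 0.82, Ephb6 -1.49, Efnb2 -0.94 and Efnb3 0.72 on the log2 scale, no longer called), to 2 and 1 among the partner genes and to 833 and 340 over all genes, and Ephb3, which has no call, turned to -0.20. At an adjusted p below 0.01, a cutoff that can only remove calls, 3 partner genes were dorsal enriched. There, 1498 and 897 of all genes were called in each direction. Among the 13549 protein-coding genes alone, a smaller set than the 16806 tested, 1647 genes were dorsal enriched. Ephb2, also without a call, turned to 0.18 with GC and length offsets and to 0.0877 with these and the replicate block. The cause of the changes under the covariate and the offsets was not tested.

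Leaving out 1 library gave 1.19 to 1.97 for Ephb1, -0.39 to 0.07 for Ephb2, -0.11 to 0.33 for Ephb3, -1.32 to -1.04 for Ephb6, 1.71 to 2.20 for Efnb1, -1.31 to -1.03 for Efnb2 and 0.87 to 1.05 for Efnb3. Ephb2 turned positive without Dorsal library 1 (0.01) and without Ventral library 2 (0.0694), and Ephb3 turned negative without Ventral library 1 (-0.11). Partner counts ranged from 4 to 6 dorsal and 2 to 3 ventral calls. Without an expression filter the median of all genes moved to 0.11, and Ephb4 was at 0.15 (edgeR adjusted p = 0.915).

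Whether the replicate numbers pair the libraries could not be settled from the counts. Same-numbered Dorsal and Ventral libraries correlated only weakly, at -0.0317 to 0.0695, in their deviations from the group means. The mean was 0.0159, against -0.0021 for different numbers, and 3 of 10 libraries correlated best with their own number. A replicate block lowered the SE of Ephb1 (0.41 to 0.25), Ephb2 (0.30 to 0.17) and Ephb3 (0.39 to 0.33). It also lowered that of Efnb1 (0.49 to 0.38), Efnb2 (0.19 to 0.14) and Efnb3 (0.15 to 0.14). Only the SE of Ephb6 rose (0.29 to 0.32). With the replicate block the family kept 3 dorsal and 2 ventral calls (Ephb1 1.47, SE 0.25), 2656 and 1674 genes were called over all, and Grip1 was no longer called (edgeR adjusted p = 0.0597). Depth limits Ephb4 and, with 6 to 18 counts per Ventral library, the size of the change of Efnb1.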
